A study of Sus scrofa with 4 samples.

Results

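The alpha adrenergic receptors of the pig comprise 6 genes, ADRA1A, ADRA1B, ADRA1D, ADRA2A, ADRA2B and ADRA2C, of 30282 gene identifiers counted in the study. All 6 were chosen by name, and every feature that carried one of these names was summed. Single cells were sequenced from porcine pancreatic ductal organoids (PPDO, libraries PPDO 1 and PPDO 2) and from freshly dissociated pancreas (libraries primary pancreas 1 and 2), with 2 libraries in each group. PPDO are cultures grown from pancreatic ducts picked by hand, kept in a basement membrane gel with WNT, R-spondin, noggin, EGF and FGF10, among other additives. They came from 1 late postnatal and 1 adult pig, and the labels do not tell which of the libraries is which. By the study's account, both lines had been passaged until most cells had shifted to a less mature ductal state. The primary tissue came from 2 late postnatal pigs, 1 wild type and 1 carrying INS-eGFP, a transgene in which the porcine insulin promoter drives a green fluorescent protein. Following the study's methods, and taking its sample numbers to be the replicate numbers of the labels, primary pancreas 1 held cells of picked ducts, whereas primary pancreas 2 pooled cells sorted for the duct-binding lectin DBA, cells sorted for INS-eGFP and cells of the whole suspension. All cells were sorted as living. The shares of cell classes in a library were therefore set by picking and sorting.

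Adrenergic receptors bind noradrenaline, released by sympathetic nerves, and adrenaline from the adrenal gland. The alpha-1 receptors (ADRA1A, ADRA1B, ADRA1D) couple to Gq proteins and phospholipase C and raise cytosolic calcium, and in the wall of blood vessels they drive contraction. The alpha-2 receptors (ADRA2A, ADRA2B, ADRA2C) couple to Gi/o proteins and lower cyclic AMP. In pancreatic islets ADRA2A is the receptor through which noradrenaline restrains insulin release. The study exposed PPDO to chemical inhibitors that included alpha adrenergic blockers, which leads to the question of where in the pancreas and in PPDO these genes are transcribed.

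Levels are given as unique molecular identifiers (UMIs, 1 per captured RNA molecule) of a gene per 1000000 UMIs of the same cells, written CPM, with exact 95% Poisson intervals where shown. Intervals cover counting error only. Median depth was 35310 and 35127 UMIs per barcode in the PPDO libraries and 8592 and 7402 in the primary ones, and 8885 and 7337 cells of PPDO and 5671 and 4261 cells of primary pancreas were used. Any pair of libraries shared 10 to 23 cell barcodes. Clusters of primary cells were named from marker lists as ductal-like, acinar-like, endocrine-like, endothelial-like, fibroblast-like, immune-like, mural-like (smooth muscle cells and pericytes of the vessel wall) and Schwann-like. Primary pancreas 2 held 7 fibroblast-like cells and 1 Schwann-like cell, so these classes were read from primary pancreas 1 alone. The receptor genes themselves were left out of the clustering.

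The receptors were sparse throughout. All 6 genes together gave 1132 UMIs in the cells of primary pancreas 1, or 14.9 CPM, and 973 UMIs in primary pancreas 2, or 8.23 CPM. PPDO 1 held 410 UMIs, or 1.36 CPM, and PPDO 2 held 306 UMIs, or 1.17 CPM. Each gene had its own distribution over the cell classes. ADRA1A and ADRA1B lay in mural-like and fibroblast-like cells, ADRA2A in fibroblast-like, mural-like and endocrine-like cells, ADRA2B in mural-like, ductal-like and endothelial-like cells, and ADRA2C in acinar-like and mural-like cells and 1 endothelial cluster.

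**Figure D1:**
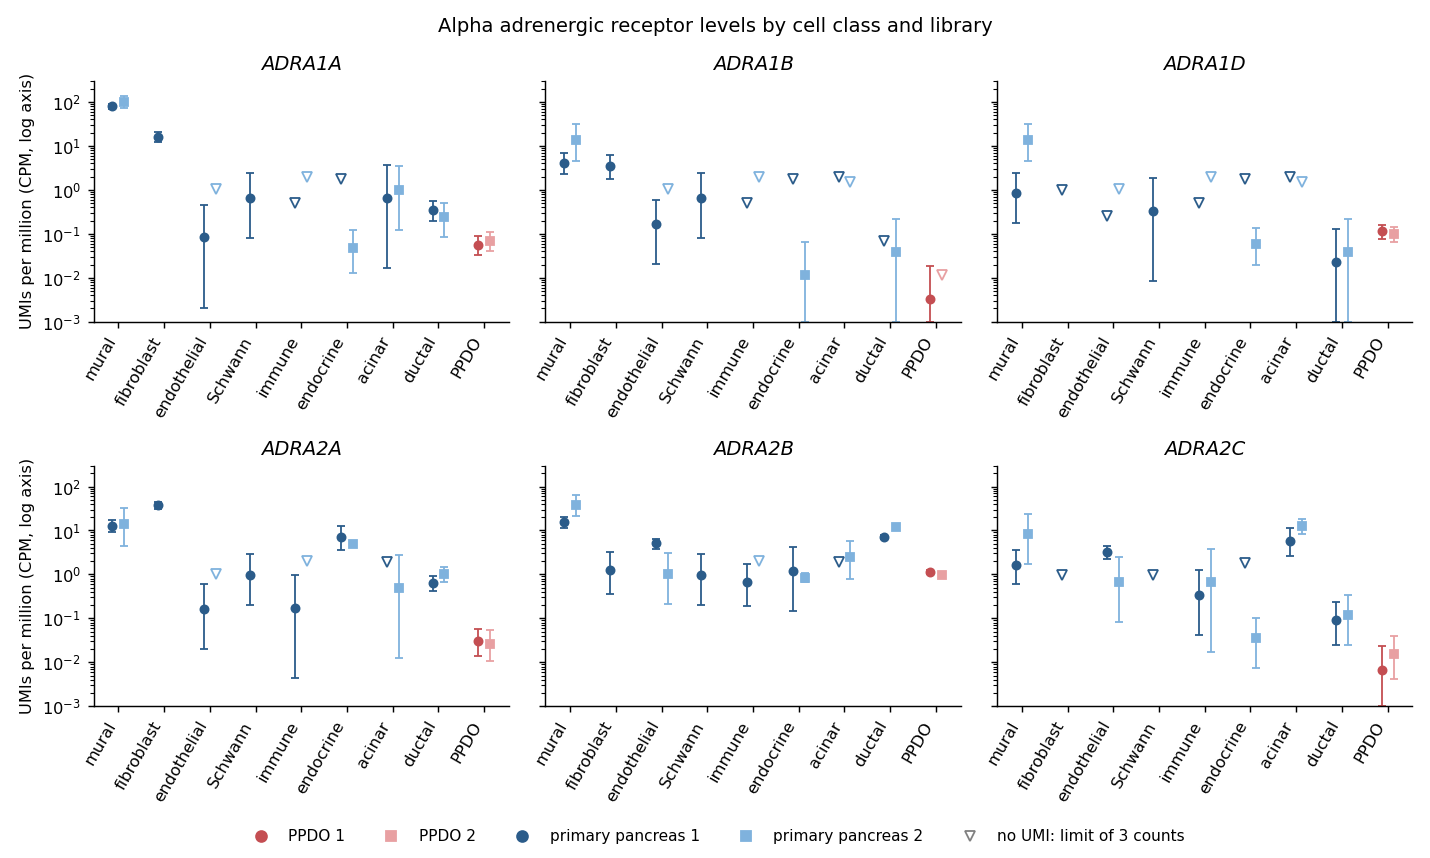
Level of each receptor gene in every cell class, in CPM on a log axis, with 1 point for each library and bars for the 95% exact Poisson interval. Open triangles mark sums without a UMI, drawn at the limit of 3 counts. ADRA1A reached 80.0 and 101 CPM in mural-like cells, ADRA2A 38.1 CPM in fibroblast-like cells, and ADRA2B was the receptor above 5 CPM in ductal-like cells of both libraries.

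ADRA1A (ENSSSCG00000009661, Sscrofa11.1 14:10623391-10733378) lay mainly in mural-like cells. These cells cells held 286 UMIs in primary pancreas 1 and 37 in primary pancreas 2, giving 80.0 and 101 CPM, a mean of 90.7 ± 15.1 (SD, n = 2 libraries). They were 7.72% of primary pancreas 1 and 0.962% of primary pancreas 2, and carried 76.1% and 69.8% of all ADRA1A UMIs of their library. Fibroblast-like cells followed at 16.1 CPM (interval 11.97 to 21.3), below and apart from the mural-like values. Every other named class stayed under 1 CPM in both libraries, and immune-like cells had no ADRA1A UMI. After each cell was thinned to 3000 UMIs, ADRA1A was detected in 67 of 406 mural-like cells of primary pancreas 1 (16.5%, exact interval 13.02 to 20.5) and in 5 of 41 of primary pancreas 2 (12.2%), against 0 of 629 and 0 of 138 immune-like cells. Without thinning, the mural-like shares were 27.6% and 34.1%.

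ADRA1B (ENSSSCG00000017041, 16:63550123-64010838) was rarer and shared the mural-like and fibroblast-like location. It gave 4.20 and 13.7 CPM in mural-like cells, from 15 and 5 UMIs, and 3.55 CPM in fibroblast-like cells, from 11 UMIs, and these classes overlapped. ADRA1D (ENSSSCG00000007139, 17:31517021-31537361) gave 3 UMIs in mural-like cells of primary pancreas 1, or 0.839 CPM. In primary pancreas 2 it gave 13.7 CPM there, but all 5 UMIs came from 1 cell.

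Each class was compared with ductal-like cells in 1 edgeR fit over the summed UMIs of classes and libraries, with the library as a covariate and 17786 genes tested. A member could enter this fit through the class where it was high, so the number that entered or was called is not a result. In mural-like cells 30.4% of all genes tested differed from ductal-like cells and 15.4% were higher. For ADRA1A the fit gave 8.12 ± 0.46 there on the log2 scale (± SE, edgeR's quasi-likelihood test, Benjamini-Hochberg adjusted p = 1.76e-07). ADRA1A entered the fit only through the classes where it was high. Its call is therefore no support, and its UMIs above are the measurement. Ductal-like cells held 0 and 1 ADRA1B UMIs and 1 and 1 ADRA1D UMIs, so these genes could be tested only in the direction of the classes where they were high. The fit gave 8.07 ± 1.08 for ADRA1B (edgeR adjusted p = 0.000125) and 6.57 ± 1.17 for ADRA1D (edgeR adjusted p = 0.00142) in mural-like cells, and their UMIs above are the measurement. The ADRA1D value rested on 8 mural-like UMIs, 5 of them in the single cell named above. In fibroblast-like cells 25% of all genes differed and 14.3% were higher. There the fit gave 5.48 ± 0.51 for ADRA1A (edgeR adjusted p = 7.96e-06) and 7.48 ± 1.25 for ADRA1B (edgeR adjusted p = 0.00093), both with the same limits. The fibroblast-like values come from 1 library, and their spread is assumed to be that of the other classes.

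ADRA2A (ENSSSCG00000010629, 14:121469572-121470924) had 3 locations. Fibroblast-like cells of primary pancreas 1 held 118 UMIs, or 38.1 CPM (interval 31.5 to 45.6). Mural-like cells had 12.9 and 13.7 CPM from 46 and 5 UMIs, and endocrine-like cells 7.097 and 5.01 CPM from 12 and 426 UMIs. The fibroblast-like value lay above both, and the other classes, ductal-like cells included, were near or under 1 CPM. Nearly all ADRA2A UMIs lay in a feature beyond the 3′ end of the gene. It held 113 of the 118 in fibroblast-like cells of primary pancreas 1, 50 of 51 in mural-like and 434 of 438 in endocrine-like cells. Whether they stem from ADRA2A was not tested. Because endocrine-like cells made up 51.7% of the cells of primary pancreas 2, they carried 91.6% of its ADRA2A UMIs. Against ductal-like cells the fit gave ADRA2A differences of 5.46 ± 0.56 log2 in fibroblast-like cells (edgeR adjusted p = 1.01e-05), 4.05 ± 0.52 in mural-like cells (edgeR adjusted p = 4.03e-05) and 3.62 ± 0.47 in endocrine-like cells (edgeR adjusted p = 3.81e-05). ADRA2A entered the fit only through these classes, so these calls are no support, and the UMIs above are the measurement. ADRA2A was the receptor called higher in endocrine-like cells, where 34.7% of all genes differed and 18% were higher. In endothelial-like cells it was lower by 2.37 ± 0.84 on the log2 scale (edgeR adjusted p = 0.0401, 37.7% of all genes in either direction and 19.3% lower), a call on 2 UMIs that was lost in 5 of 7 alternative analyses.

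Within the endocrine-like class, ADRA2A was higher in the clusters with INS among their 3 leading genes than in the cluster of the other hormones. The cluster led by CHGA, SCG2 and INS gave 7.84 CPM in primary pancreas 1 (8 UMIs) and 5.54 CPM in primary pancreas 2 (244 UMIs). The cluster led by INS itself gave 4.70 CPM in primary pancreas 2 (170 UMIs) and 12.1 CPM in primary pancreas 1, from 3 UMIs in 10 cells. The cluster led by SST and GCG, the hormones of delta and alpha cells, gave 2.50 CPM from 12 UMIs in primary pancreas 2 and 2.37 CPM from 1 UMI in 55 cells of primary pancreas 1. These clusters were found in the same cells and the order is a description.

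ADRA2B (ENSSSCG00000008122, 3:45760966-45762306) was found in duct cells as well as in mural-like cells. Ductal-like cells carried 311 UMIs in primary pancreas 1, or 7.19 CPM, and 298 UMIs in primary pancreas 2, or 11.8 CPM, a mean of 9.47 ± 3.22 (SD, n = 2). These were 69.7% and 75.4% of the ADRA2B UMIs of each library. Mural-like cells stood at 15.4 and 38.3 CPM from 55 and 14 UMIs, and the difference of 1.27 ± 0.65 log2 between mural-like and ductal-like cells did not pass the test (edgeR adjusted p = 0.168). ADRA2B was lower than in ductal-like cells in immune-like cells, by 4.01 on the log2 scale (SE 0.93, edgeR adjusted p = 0.0032, where 42.5% of all genes differed and 23.1% were lower), and in endocrine-like cells, by 2.50 (SE 0.72, edgeR adjusted p = 0.015, where 16.7% of all genes were lower), the latter lost with DESeq2 (adjusted p = 0.0553). After thinning to 3000 UMIs, 36 of 2052 (1.75%) and 41 of 1188 (3.45%) ductal-like cells had an ADRA2B UMI, against 0 of 629 immune-like cells of primary pancreas 1. Without thinning the ductal-like shares were 12.6% and 20.4%, against 4 of 709 immune-like cells of primary pancreas 1 (0.564%) and 0 of 138 of primary pancreas 2. Of the 5 ductal-like clusters, 4 carried the gene, at 4.46 to 12.2 CPM in the library that held most of their cells, and the fifth, 64 cells of primary pancreas 2, had no ADRA2B UMI, which allows up to 3.90 CPM.

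ADRA2B in endothelial-like cells differed between the libraries, with 61 UMIs (5.06 CPM) in primary pancreas 1 and 3 UMIs (1.03 CPM) in primary pancreas 2. In primary pancreas 1, 58 of the 61 UMIs lay in 1 endothelial cluster of 673 cells, at 8.12 CPM. Primary pancreas 2 held 2 cells of this cluster, but the clustering of primary cells was not corrected for library. A cluster of 193 endothelial-like cells, all of primary pancreas 2, shared the leading genes FLT1 and SCARB1 with it. Whether these 2 clusters hold the same cell type was not tested. ADRA2C (ENSSSCG00000008703, 8:2320125-2322162) lay in another endothelial cluster, led by SEMA3G, SLPI, TMEM100, CLDN5 and GJA5, a gap junction gene of arterial endothelium. That cluster gave 28 UMIs, or 16.9 CPM, in 20 of its 148 cells in primary pancreas 1, and 1 UMI, or 4.22 CPM, in primary pancreas 2. The cluster with ADRA2B had 8 ADRA2C UMIs, or 1.12 CPM. As the clusters came from the same cells, this split was not tested. All 40 endothelial-like ADRA2C UMIs lay in a feature beyond the 3′ end of the gene, and whether they stem from ADRA2C was not tested.

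Among whole classes ADRA2C had its highest mean in acinar-like cells, the enzyme-secreting cells of the exocrine pancreas, with 5.89 CPM (9 UMIs) and 12.8 CPM (26 UMIs), overlapping the 1.68 and 8.21 CPM of mural-like cells (6 and 3 UMIs). All 35 acinar-like and all 9 mural-like UMIs lay in the feature beyond the 3′ end of the gene, with the protein-coding LOC106504574 within 10000 bases. Whether they stem from ADRA2C was not tested. Ductal-like cells held 4 and 3 ADRA2C UMIs, so this gene too could be tested only in the direction of the classes where it was high. For acinar-like over ductal-like cells the fit gave 7.78 ± 0.87 log2 (edgeR adjusted p = 3.05e-05), and the UMIs above are the measurement. In acinar-like cells 25.1% of all genes differed, 11% were higher and the median gene was lower by 0.42. With the same limit, the fit gave 4.62 ± 1.05 in mural-like cells (edgeR adjusted p = 0.00386), from 6 and 3 UMIs. In endothelial-like cells the fit gave 4.40 ± 0.83, also with this limit (edgeR adjusted p = 0.000819, 18.4% of all genes higher). No receptor was called in Schwann-like cells, where 23.5% of all genes differed from ductal-like cells.

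At a finer clustering resolution of 1.0, the mural-like cells fell into 2 clusters with different receptors. One was led by MYH11, CNN1, ACTA2, MYL9 and TAGLN, genes of the contractile apparatus of smooth muscle, and held 257 and 21 cells of the primary libraries. The other was led by CCL19, GUCY1A2, TRPC6, RGS5 and KCNJ8, of which RGS5 and KCNJ8 mark pericytes, and held 181 and 20 cells. ADRA1A reached 112 and 186 CPM in the MYH11-led cluster, from 274 and 37 UMIs, against 10.6 CPM (12 UMIs) and no UMI in the RGS5-containing cluster. ADRA2A was distributed the other way, with 3.27 CPM (8 UMIs) and no UMI in the MYH11-led cluster and 33.6 and 30.1 CPM (38 and 5 UMIs) in the other. ADRA2B followed ADRA2A, at 9.41 and 20.1 CPM in the MYH11-led cluster and 28.3 and 60.2 CPM in the other. ADRA1B had 4 and 2 UMIs in the MYH11-led cluster and 11 and 3 in the other. The ADRA1A and ADRA2A orders were the same in both libraries, but primary pancreas 2 held few of these cells.

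The fibroblast-like cells of primary pancreas 1 also separated. A cluster of 175 cells led by CCDC80, DPT and COL14A1, matrix genes, had ADRA2A at 65.5 CPM (106 UMIs) and ADRA1A at 28.4 CPM (46 UMIs). A cluster of 130 cells led by FCN2, APOD and CLDN1 had 6.27 CPM (8 UMIs) and 0.784 CPM (1 UMI). Mural-like and fibroblast-like cells thus each held a part that was high in ADRA1A and a part that was low, and no test was made between clusters.

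**Figure D2:**
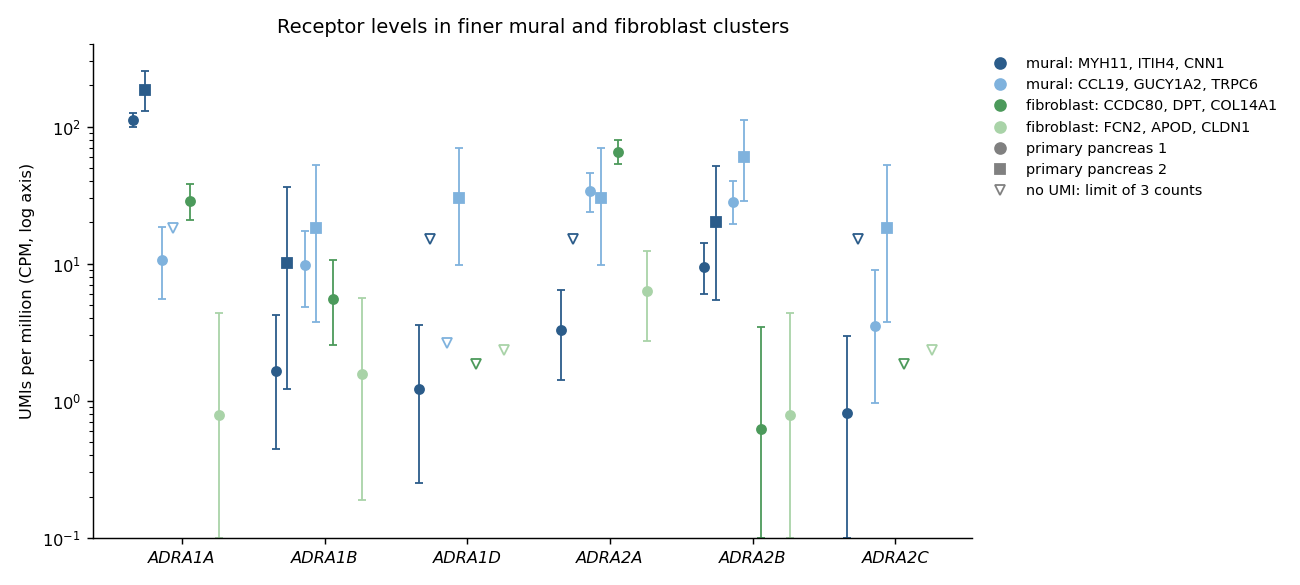
Level of the 6 receptors in the finer mural and fibroblast clusters, in CPM on a log axis, with 1 point for each library and bars for 95% exact Poisson intervals. In primary pancreas 1, ADRA1A was at 112 CPM in the MYH11-led cluster and at 10.6 CPM in the CCL19-led one, and ADRA2A was at 3.27 and 33.6 CPM.

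PPDO were then compared with the ductal-like cells of primary pancreas, to ask how receptor levels in these cultures stood against those of duct cells. The 9 measured ductal markers summed to 1040 and 921 CPM in PPDO, against 29854 and 33524 CPM in ductal-like cells. A single PPDO cluster, of 256 and 151 cells, took the ductal name. The receptor differences are therefore not changes within cells of the same state, and their relation to the lower duct markers was not tested. Of 23539 genes tested, 10302 differed (43.8%), with 22.9% higher and 20.9% lower in PPDO, and against this background a receptor that differs is not unusual. The low-count filter left 4 of the 6 receptors to test. ADRA1A, ADRA2A and ADRA2B were called lower in PPDO, and ADRA1D, which passed the filter through its PPDO counts alone, was called higher. ADRA1A and ADRA2A needed their ductal-like counts to pass the filter, and their fits without it are given below. Organoid and tissue cells also differ in dissociation, culture and passaging, and these cannot be told apart from the group.

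ADRA2B was at 1.15 CPM in PPDO 1 (347 UMIs) and 0.957 CPM in PPDO 2 (251 UMIs), below the 7.19 and 11.8 CPM of ductal-like cells. The groups did not overlap. The fitted difference was -2.68 ± 0.29 log2 (edgeR adjusted p = 0.0032), a level 6.43-fold higher in ductal-like cells. Of the PPDO cells thinned to 3000 UMIs, 38 of 8824 (0.431%) and 24 of 7327 (0.328%) had an ADRA2B UMI, and without thinning 3.53% and 3.20%. ADRA2B gave 347 of the 410 receptor UMIs of PPDO 1 and 251 of the 306 of PPDO 2.

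ADRA2A was found in few PPDO cells, with 9 UMIs (0.0299 CPM) and 7 UMIs (0.0267 CPM) in the libraries, against 27 UMIs (0.625 CPM) and 26 UMIs (1.03 CPM) in ductal-like cells. The difference was -4.34 ± 0.42 log2 (edgeR adjusted p = 0.00249). ADRA2A passed the low-count filter through its ductal-like counts alone. Both PPDO values lay under the 0.0654 CPM that 10 counts make at the median sum. Without the filter the difference was -4.26 ± 0.46 log2 (edgeR adjusted p = 0.00197). Most ductal-like ADRA2A UMIs came from few cells. A small group that the finer clustering drew out, led by TCN1, TM4SF20, APOE and LUZP2 and matching no marker list by its leading genes, held 15 of the 27 UMIs in 9 cells of primary pancreas 1 and 19 of the 26 in 17 cells of primary pancreas 2. With the finer clustering, in which these cells left the ductal-like class, the difference was -3.08 ± 0.45 log2 (edgeR adjusted p = 0.00721). With all sums thinned to the smallest, neither PPDO library kept an ADRA2A UMI, against 16 and 26 in ductal-like cells, and the fitted -7.23 ± 0.96 log2 then depends on the prior count and is no bound.

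ADRA1A stood at 0.0565 and 0.0686 CPM in PPDO, from 17 and 18 UMIs, and at 0.347 and 0.237 CPM in ductal-like cells, from 15 and 6 UMIs. The difference of -1.81 ± 0.46 log2 passed the test (edgeR adjusted p = 0.0339) but moved to -2.62 log2 with doublets kept and was lost in 6 of 12 alternative analyses, among them those without a low-count filter (edgeR adjusted p = 0.0529), with DESeq2 (adjusted p = 0.0834), and without PPDO 1 (edgeR adjusted p = 0.234), PPDO 2 (0.186) or primary pancreas 1 (0.146). The ADRA1A level of ductal-like cells was 0.434% and 0.234% of that in mural-like cells of the same library, and the summed level of the 14 mural markers was 0.246% and 0.362%. For ADRA2B the same comparison gave 46.8% and 30.7%. Free RNA was not removed from these counts, and its part in the ADRA1A values was not tested.

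ADRA1D stood at 0.113 and 0.0991 CPM in PPDO from 34 and 26 UMIs, against 1 UMI in ductal-like cells of each primary library (0.0231 and 0.0394 CPM). The fitted difference was 2.25 ± 0.57 log2 (edgeR adjusted p = 0.0337), but with so few ductal-like UMIs the gene could be tested in this direction only, so the call is no support for it. The call was lost in 5 of 11 alternative analyses, among them those without the filter (edgeR adjusted p = 0.0544), with DESeq2 (adjusted p = 0.225) and without primary pancreas 1 (edgeR adjusted p = 0.147) or 2 (0.0824), and the gene was not tested without either PPDO library. The ratio of pooled UMI rates, ductal-like over PPDO, was 0.274 with an exact interval of 0.0324 to 1.03. ADRA1B, with 1 UMI in each group, and ADRA2C, with 7 UMIs in ductal-like cells and 6 in PPDO, were under the filter. The ADRA2C rate was 9.58-fold higher in ductal-like cells (exact interval 2.76 to 34.5, counting error only). With doublets kept ADRA2C passed the filter, and the fit gave -3.29 ± 0.61 log2 in PPDO (edgeR adjusted p = 0.0142). It passed through its ductal-like counts alone, so it could be called lower in PPDO only, and this call is no support. Without the filter the difference was not called (-2.66 ± 0.84 log2, edgeR adjusted p = 0.0596). For ADRA1B the depth could not show a difference (ratio 8.21, interval 0.105 to 645).

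**Figure D3:**
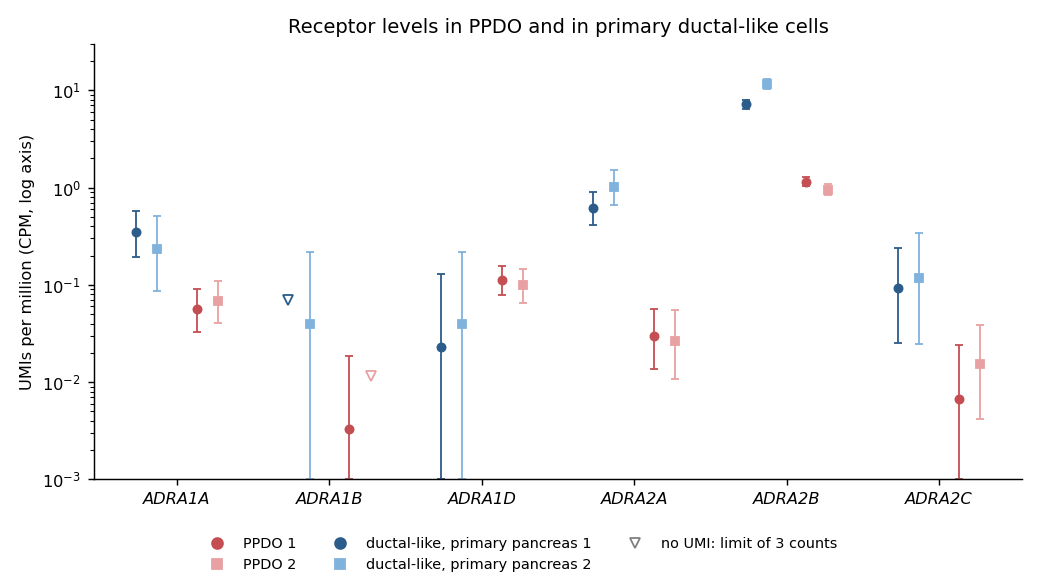
Level of each receptor in the PPDO libraries and in ductal-like cells of both primary libraries, in CPM on a log axis, with bars for 95% exact Poisson intervals and open triangles at the limit of 3 counts where no UMI was found. ADRA2B lay at 0.957 and 1.15 CPM in PPDO and at 7.19 and 11.8 CPM in ductal-like cells, and ADRA1D was the gene with the PPDO points on top.

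The files count a gene body and a stretch added beyond its 3′ end as separate features, and the receptors divided between them unequally. Of the primary ADRA2A UMIs 666 of 677 (98.4%) lay in the extension, and of the ADRA2C UMIs 101 of 103 (98.1%), whereas 413 of 429 (96.3%) ADRA1A UMIs lay in the gene body. For ADRA2B the division differed between PPDO and duct. The extension took 42.9% (exact interval 37.7 to 48.3) and 41.8% (35.7 to 48.2) of the ADRA2B UMIs in PPDO 1 and 2, but 3.86% (2.01 to 6.64) and 3.36% (1.62 to 6.08) in ductal-like cells, and none of 55 and none of 14 in mural-like cells. In endocrine-like cells of primary pancreas 2 it took 37 of 72 UMIs, or 51.4%.

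Because of this, the ADRA2B difference between PPDO and ductal-like cells was carried by the gene body. The body gave 0.658 and 0.556 CPM in PPDO and 6.92 and 11.4 CPM in ductal-like cells, a difference of -3.43 ± 0.30 log2 (edgeR adjusted p = 0.00202). The extension gave 0.495 and 0.400 CPM in PPDO and 0.278 and 0.394 CPM in ductal-like cells, a difference of the opposite sign, 0.89 ± 0.36 log2, that did not pass the test (edgeR adjusted p = 0.109). Gene-body and extension features were examined separately after the data were seen. Whether the extension UMIs stem from transcripts of ADRA2A, ADRA2B or ADRA2C was not tested. No other annotated gene lay within 10000 bases of ADRA2B in the RefSeq table, while LOC102167253 lay that near to ADRA2A and LOC106504574 to ADRA2C.

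**Figure D4:**
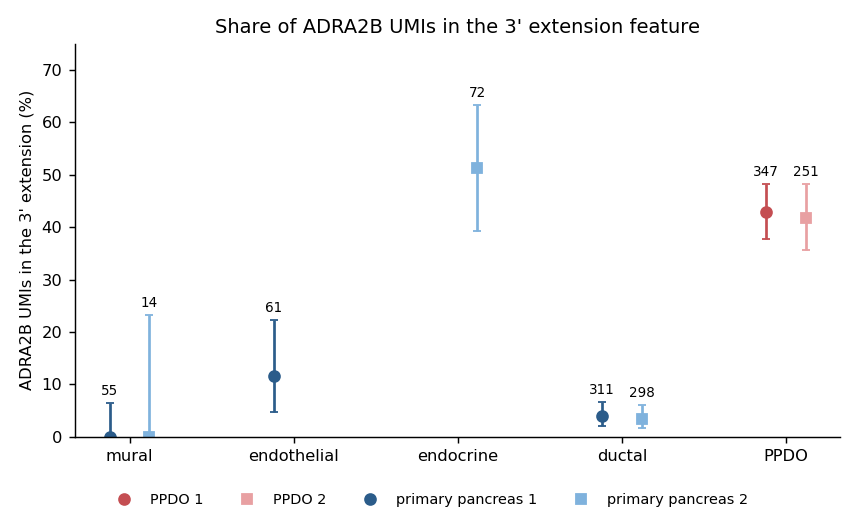
Share of ADRA2B UMIs in the feature beyond the 3′ end, in percent, for classes and libraries with at least 10 ADRA2B UMIs, with exact 95% binomial intervals and the number of UMIs at each point. PPDO lay at 42.9% and 41.8% and ductal-like cells at 3.86% and 3.36%.

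Within PPDO, ADRA2B was detected in 9 of 10 clusters in both libraries. The highest level in each library was in the cluster with the glycolysis list (leading genes TIMP3 and ADM), at 2.22 CPM in PPDO 1 (92 UMIs) and 2.00 CPM in PPDO 2 (69 UMIs). The cluster led by IGFBP6 and CORIN followed in PPDO 1 at 1.32 CPM and gave 1.45 CPM in PPDO 2. The cluster with the WNT list gave 0.963 and 0.577 CPM, the clusters with the basal list 0.893 and 0.958 CPM in PPDO 1 and 0.543 and 0.513 CPM in PPDO 2, the cluster with the ductal list 0.772 and 1.45 CPM from 7 UMIs in each, and dividing cells led by CENPF and TOP2A 0.415 and 0.546 CPM. A cluster of 34 and 87 cells, with a median of 13159 UMIs per cell, had no ADRA2B UMI, but so few cells cannot show that its level was below the others. ADRA2A did not keep 1 place, with 7 of its 9 UMIs in the WNT cluster of PPDO 1 and 1 of 7 in that of PPDO 2. ADRA1D had at most 10 UMIs in any cluster of either library.

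**Figure D5:**
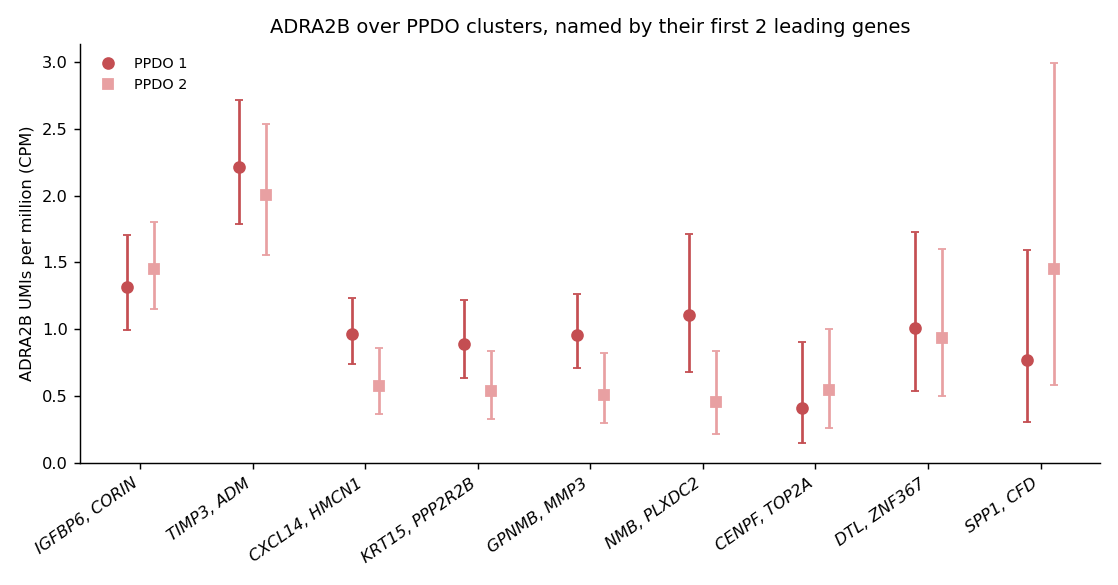
ADRA2B level in the 9 PPDO clusters with at least 100 cells in each library, in CPM, with bars for 95% exact Poisson intervals. The cluster led by TIMP3 and ADM gave 2.22 and 2.00 CPM and was the highest in both libraries.

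Of the beta adrenergic receptors, which couple to Gs and raise cyclic AMP, ADRB1 (0.55 ± 0.69 log2, edgeR adjusted p = 0.563) and ADRB3 (-0.84 ± 0.57, edgeR adjusted p = 0.286) did not pass the test between PPDO and ductal-like cells. In the tissue, ADRB1 was at 12.3 and 15.1 CPM in endothelial-like cells.

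The genes downstream of the alpha receptors were read against the 22.9% of all genes that were higher and the 20.9% that were lower in PPDO. Of 15 tested genes of the Gq and phospholipase C arm, 3 were higher and 6 lower in PPDO (median -0.90 log2, against 0.01 over all genes). GNA15, a Gq-family alpha subunit, rose from 0.231 and 0.434 CPM to 46.4 and 47.4 CPM (7.66 ± 0.28 log2, edgeR adjusted p = 0.000376), and PLCB4, a phospholipase C, fell from 143 and 73.4 CPM to 2.12 and 2.24 CPM (-5.22 ± 0.49 log2, edgeR adjusted p = 0.00236). Of 18 tested genes of the Gi/o and adenylyl cyclase arm, 2 were higher and 7 lower (median -0.97). GNAI1, an inhibitory alpha subunit, rose from 0.902 and 1.97 CPM to 134 and 140 CPM (7.098 ± 0.36 log2, edgeR adjusted p = 0.000641), and KCNJ5, a potassium channel opened by G-protein beta-gamma subunits, fell from 4.21 and 14.9 CPM to 0.0299 and 0.0305 CPM (-7.75 ± 0.77 log2, edgeR adjusted p = 0.00262).

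Of 13 tested genes that desensitise receptors, 4 were higher and 3 lower in PPDO, with a median of 0.08, near the shares of all genes. GRK3, a receptor kinase, fell from 409 and 449 CPM to 0.498 and 0.568 CPM (-9.19 ± 0.21 log2, edgeR adjusted p = 0.000303), whereas GRK5, another, rose from 4.37 and 5.32 CPM to 77.1 and 78.9 CPM (4.47 ± 0.15 log2, edgeR adjusted p = 0.000348). Of 7 tested genes of catecholamine synthesis, uptake and breakdown, 1 was higher and 3 lower, with a median of -1.06, and so few genes cannot be set apart from the 22.9% and 20.9% of all genes. DDC, aromatic amino acid decarboxylase, fell from 8.93 and 11.6 CPM to 0.120 and 0.164 CPM (-5.70 ± 0.34 log2, edgeR adjusted p = 0.000869), and MAOB, a monoamine oxidase, from 91.3 and 133 CPM to 4.20 and 1.62 CPM (-4.81 ± 0.52 log2, edgeR adjusted p = 0.00323).

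Over the 14 sums of a named class in a primary library, the genes with the most similar levels were found for the 4 receptors with at least 100 UMIs. For ADRA1A they were GAL3ST4 (Pearson r = 0.986), NPY1R, a neuropeptide Y receptor (0.984), and CSPG4, a marker of pericytes that is also in the mural list (0.980). For ADRA2A they were NBL1 (0.953), TRPM3 (0.951) and INSYN1 (0.934), for ADRA2B FBLIM1 (0.930), EXD3 (0.923) and GUCY1A1 (0.897), and for ADRA2C PFKFB1 (0.891), AFM (0.873) and MKX (0.867). The sums share libraries and depth, and these values describe the order of classes only.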

How the data were processed

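Droplet libraries of 3′ ends were made from PPDO (2 libraries) and primary pancreas (2 libraries). The deposited matrices hold UMI counts that were not normalized, 1 value for each feature of each barcode, which the authors made with Cell Ranger and an in-house extended pig annotation, and the submitters' processing notes list the builds Sscrofa11.1 and GRCh38. The barcode and feature tables deposited beside them hold names. The study removed free RNA and doublets at a later step, and the deposited counts are from before it. Total UMIs were 366263520 and 316018482 in PPDO and 87043513 and 138928395 in primary pancreas. The features of each gene identifier (56060 features, 30282 identifiers) were summed. Gene positions are from the RefSeq table of Sscrofa11.1. Whether counting used strand is not given in the sources used here.

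Cells were kept below 3% (PPDO) or 8% (primary) mitochondrial UMIs, with under 9000 features and at least 1000 (PPDO), 400 (primary pancreas 1) or 800 features and 3000 UMIs (primary pancreas 2). Scrublet scores above 0.25 and 0.15 removed 89 and 154 doublets of the primary libraries. Cells were clustered with Scanpy 1.11.5 (2000 variable genes without the receptors, 20 components, 15 neighbours, Leiden resolution 0.5), and a cluster took the name of its best list when at least 3 markers passed in it. Shallow clusters with no such marker among their 10 leading genes, and those whose leading genes held more markers of a different list, stayed unnamed. The rule that scores the lists was set after clusters were seen. Differences were tested with edgeR 4.0.16 (quasi-likelihood, TMM, filterByExpr, two-sided, Benjamini-Hochberg at 0.05 over all genes tested) on UMIs summed per library, or per class and library for classes with at least 20 cells. Each library is 1 animal or 1 culture, so p-values of the PPDO comparison measure the spread between these libraries. In the class comparison the library was a covariate. Its p-values measure the spread left after a shift common to all classes of a library, not the spread between animals. Fibroblast-like and Schwann-like cells have 1 sum each and no replicate there. TMM scaling shifted PPDO against ductal-like cells by 0.46 log2 relative to CPM. Counts were also simulated with 1 dispersion per comparison, and 23550 of the 23750 genes of the PPDO comparison were left unchanged. The PPDO comparison recovered 3 of 62 genes changed by 1 log2, 39 of 67 by 2 and 71 of 71 by 3. The mural against ductal-like one recovered 7 of 79, 37 of 52 and 54 of 69, with 5 false calls. Recovery was not split by level, so it does not show what could be detected for receptors with few UMIs. In the data 43.8% of genes differed between PPDO and ductal-like cells, a larger share than was simulated.

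The receptors, the marker lists and the pathway lists were chosen with earlier results of these data known. All 6 receptors are named, with beta receptors and, per pathway list, the 2 genes with the largest change past the threshold and at least 5 CPM. Alternatives were no low-count filter, DESeq2 1.42.0, a replicate block, each library left out, thinned sums, doublets kept, 1 cell filter for both primary libraries, resolution 1.0, the receptors allowed in clustering, the feature without isoform or extension suffix alone, other thinning depths and the mean CPM per cell. Counting without extensions, or extensions alone, was added after the data were seen. Sequences were not printed. A result on a further gene of the lists is not reported here.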

Additional observations from a re-analysis of the deposited data

Results flagged for a closer look

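ADRA1A was found in a cluster that met no marker list's rule and so entered no comparison. In primary pancreas 1 this cluster gave 21.2 CPM, from 21 UMIs in 11 of 149 cells with at most 7 in a cell, above the limit that a count of 0 allows. It was led by GATA4, ADAD1, MYO18B, SPHKAP, ESR2 and HHIP. Its nearest list was the acinar one, with 2 of 12 markers passing and RBPJL among its 10 leading genes, and SPHKAP was also a leading gene of an acinar-like cluster. What these cells are was not tested.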

How the results depend on the processing

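Against 4 receptors called between PPDO and ductal-like cells, 2 were called without a low-count filter, with the replicate block, with DESeq2, with sums thinned to the smallest and with the plain feature alone, 1 with extensions alone, and 2 to 3 with a library left out. The calls over all genes were 10125 of 28667 without the filter, 8143 of 23539 with the block, 11069 of 23539 with DESeq2 and 8948 of 18335 thinned, against 10302 of 23539. They were 10298 of 23537 with the plain feature alone and 10294 of 23537 with extensions alone. ADRA1A and ADRA1D were the calls lost without the filter, with DESeq2 and with the block (edgeR adjusted p = 0.0813 and 0.0822). Neither was tested with thinned sums, and with the plain feature alone ADRA1A and ADRA2A were not tested. With doublets kept 5 receptors were called, and 10289 of 23659 genes over all. The lower ADRA2B level was called under every alternative in which it was tested except extensions alone, where it turned to 0.89 log2. The lower ADRA2A level was called under every alternative in which it was tested. Where the filter was used, ADRA2A passed it through its ductal-like counts alone, so those calls are no support. Without the filter it was also called (edgeR adjusted p = 0.00197), and without extensions it was not tested. Leaving out a library gave 4550 to 10716 genes called, with 4994 without PPDO 1 and 4550 without PPDO 2. Same-numbered libraries did not deviate together (r = -0.01 over 23539 genes). With 2 libraries in each group, this cannot show whether they shared a processing step.

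Against 14 calls in 42 contrasts between primary classes and ductal-like cells, 13 to 17 of 42 were made under the other alternatives, 10 of 28 without extensions and 5 of 14 with the plain feature alone, which holds no ADRA1A or ADRA1B. In the fit reported above, 23.5% to 42.5% of all genes were called in a class, so these counts are no result about the receptors. The lower ADRA2B level of endocrine-like cells was lost with DESeq2 (adjusted p = 0.0553), and the lower ADRA2A level of endothelial-like cells in 5 of 7 alternatives. Without extensions, or with the plain feature alone, ADRA2A in fibroblast-like cells went from 38.1 to 1.61 CPM, ADRA2C in acinar-like cells from 9.33 to 0, and in PPDO ADRA2A and ADRA2C to 0 and ADRA2B from 1.05 to 0.607 CPM. As the mean CPM per cell, ADRA2A in PPDO was 0.0453. ADRB1 turned to -0.50 log2 with doublets kept, and ADRB3 ranged from -1.34 to 0.10 with a library left out, positive without primary pancreas 1. Neither was called.

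Shares of cells with a UMI, as means of libraries, moved with depth. Thinned to 3000 UMIs, then to 5000 and unthinned, they were 14.3%, 25.7% and 30.9% for ADRA1A in mural-like cells, 8.93%, 14.1% and 18.5% for ADRA2A in fibroblast-like cells (5.32% at 2000), 1.84%, 4.98% and 7.70% for ADRA1B in mural-like cells (2.92% at 2000), 1.14%, 4.02% and 9.13% for ADRA2C in acinar-like cells, 2.60%, 4.25% and 16.5% for ADRA2B in ductal-like cells and 0.379%, 0.598% and 3.37% in PPDO (0.277% at 2000). ADRA2B in mural-like cells went from 8.68% to 17.9% unthinned. Leaving out a primary library left no residual degrees of freedom in the class comparison, so it has no value there, and ADRA2A in fibroblast-like cells has no value without primary pancreas 1. ADRA1B and ADRA1D had too few UMIs to order single clusters.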
